A study of Ovis aries with 7 samples.

Results

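The opioid receptors were examined as the 4 genes OPRM1 (mu receptor, ENSOARG00020024943), OPRD1 (delta receptor, ENSOARG00020017834), OPRK1 (kappa receptor, ENSOARG00020025297) and OPRL1 (nociceptin receptor, ENSOARG00020009569), taken by symbol from the 26479 features counted in single nuclei of the anterior sheep striatum. Each symbol had 1 row, and all 4 were counted in all 7 libraries. The nuclei came from 12 sheep aged 5 years, 6 OVT73 transgenic animals and 6 wild-type controls. OVT73 is a single transgenic line that carries a full-length human HTT cDNA with an expanded repeat under human HTT upstream sequence, as a model of Huntington disease. The OVT73 libraries were 3, 5 and 7, each a pool of 2 sheep. The control libraries were 1 and 2, each a pool of 2 sheep, and 4 and 6, each from 1 sheep. The sheep of a pool were not separated here, so the library was the replicate throughout (n = 3 OVT73 and n = 4 control).

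The opioid receptors are receptors on the cell surface that couple to inhibitory Gi/o proteins, lower cyclic AMP, open inwardly rectifying potassium channels and close calcium channels. Enkephalins from the precursor PENK act on the delta and mu receptors, dynorphins from PDYN on the kappa receptor, and nociceptin from PNOC on OPRL1. In the striatum, medium spiny neurons (MSNs) fall into D1 neurons of the direct pathway, which make dynorphin, and D2 neurons of the indirect pathway, which make enkephalin, and patches rich in mu receptor mark the striosomes within the surrounding matrix.

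After filtering, 32599 nuclei were kept, between 3102 and 8340 in a library, from libraries of 20887378 to 70473426 unique molecular identifiers (UMIs, each standing for 1 captured RNA molecule). Libraries shared 159 barcodes. Marker genes named 29455 nuclei in 14 classes. The D1 and D2 MSN-like classes rested on RGS9 and PDE10A with TAC1 and EBF1 (D1, 2544 nuclei) or DRD2 and PENK (D2, 2046 nuclei). DRD1 itself was not among the features. The eccentric MSN-like class (316 nuclei) rested on OTOF, FOXP2 and TSHZ1, with PDE10A and BCL11B but not RGS9 among its raised markers. These are "like" classes by RNA alone, and the receptors were kept out of the genes that formed them. The other classes with at least 10 nuclei in every library were PV/Th interneuron-like, microglia-like, astrocyte-like, oligodendrocyte precursor (OPC)-like, oligodendrocyte-like and neuroblast-like nuclei. For a feature named HTT that stands apart from the sheep HTT gene in the feature list, the OVT73 libraries held 25, 61 and 322 UMIs, while at most 6 were found in a control library, so the labels and this feature did not conflict. Levels are given as CPM, the UMIs of the gene per 1000000 UMIs summed over the nuclei of a class in a library, and are not corrected for gene length, so they were compared between classes and not between receptors.

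OPRM1 was found in microglia-like nuclei and in MSNs. Its mean level over 7 libraries was 1016 ± 360 CPM (SD) in microglia-like nuclei, 317 ± 61.6 CPM in D2 MSNs, 297 ± 32.3 CPM in eccentric MSNs and 120 ± 35.4 CPM in D1 MSNs. PV/Th interneuron-like nuclei followed at 73.3 ± 26.8 CPM, neuroblast-like nuclei at 28.9 ± 27.1 CPM, and astrocyte-like, oligodendrocyte-like and OPC-like nuclei at 10.5 ± 5.08, 10.1 ± 3.05 and 7.12 ± 1.19 CPM. In the less numerous classes, where nuclei of all libraries were summed, OPRM1 stood at 115 CPM in cholinergic interneuron-like nuclei and at 88.8 CPM in SST/NPY interneuron-like nuclei.

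In libraries 1 to 7 the OPRM1 level in D2 MSNs was 330, 276, 323, 200, 341, 365 and 382 CPM. In D1 MSNs of the same libraries it was 114, 112, 126, 53.9, 122, 139 and 171 CPM. The D2 level was above the D1 level in every library, and control library 4 was the lowest in both classes. In eccentric MSNs it was 295, 308, 249, 278, 346, 323 and 277 CPM, a range that overlapped that of D2 MSNs. In microglia-like nuclei it was 1338, 1571, 1108, 843, 852, 923 and 477 CPM, with OVT73 library 7 the lowest and control library 2 the highest. The summed oligodendrocyte markers in D1 MSNs were also highest in library 4 (88.2 CPM, against 33.9 to 61.0 CPM in the others), and their part in its low OPRM1 level was not tested.

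**Figure D1:**
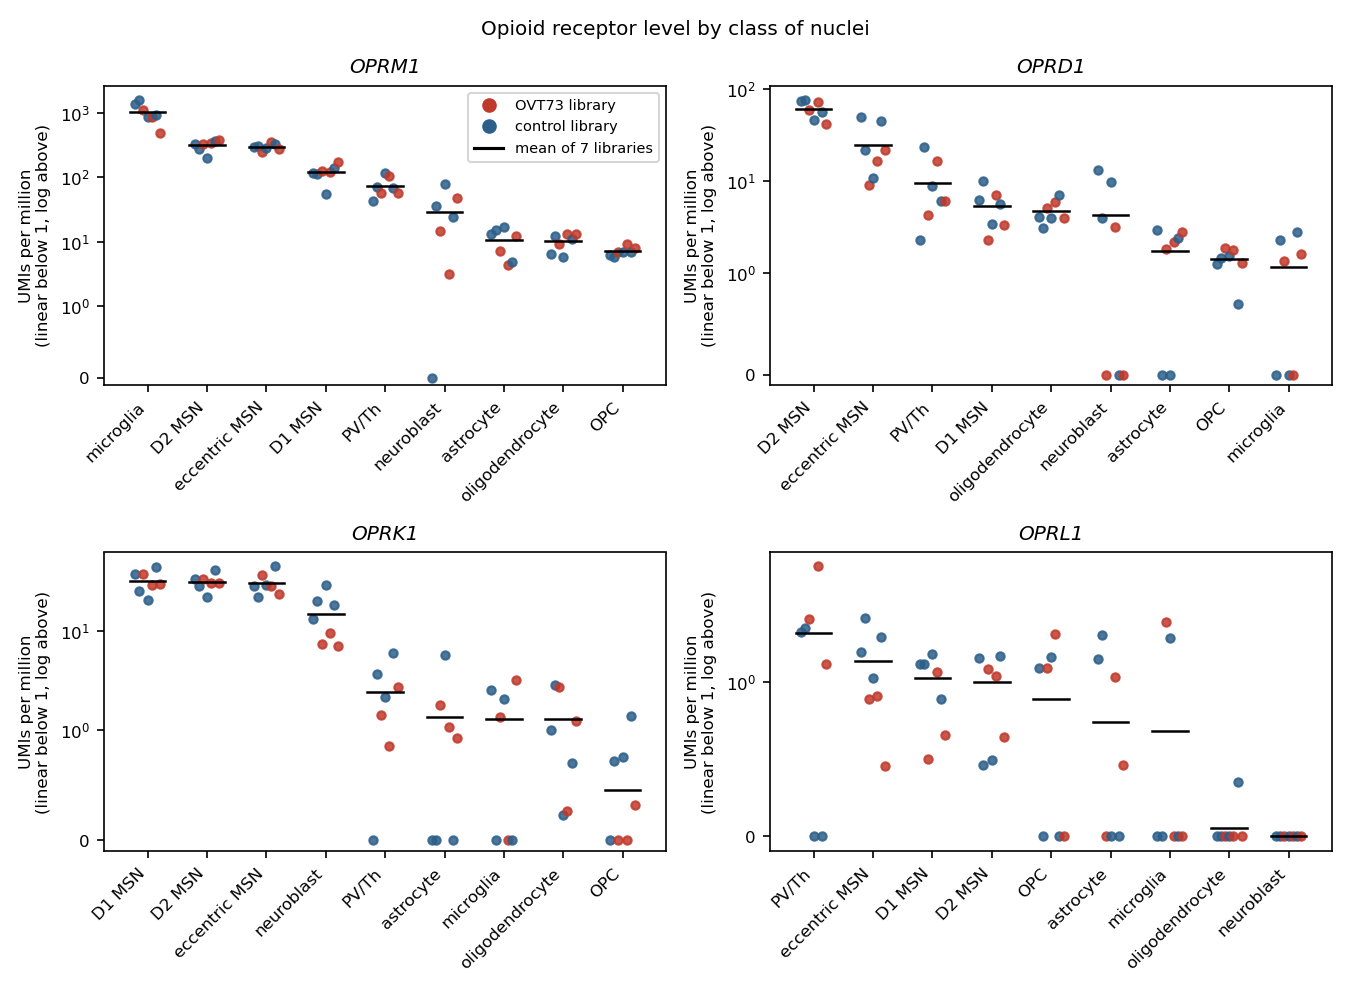
Level of each opioid receptor in CPM on a log axis for the 9 larger classes, each holding 10 or more nuclei per library, with 1 point per library (OVT73 and control coloured apart) and a bar at the mean of 7 libraries. OPRM1 was highest in microglia-like nuclei and next in D2 and eccentric MSNs, OPRD1 was highest in D2 MSNs, and OPRK1 lay near 31 CPM in all 3 MSN classes.

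Depth differed widely between the classes, with a median of 22754 UMIs per nucleus in D1 MSNs, 23296 in D2 MSNs and 1417 in microglia-like nuclei. Nuclei were therefore thinned to 1000 UMIs each, leaving out shallower ones, before the share with at least 1 OPRM1 UMI was compared (95% Wilson intervals, which cover counting error only). That share was 51.7% in microglia-like nuclei (1176 of 2274, 49.7 to 53.8%), 32.3% in eccentric MSNs, 26.9% in D2 MSNs (25.0 to 28.8%) and 11.9% in D1 MSNs (10.7 to 13.2%). It was 12.1% in SST/NPY interneuron-like, 9.80% in cholinergic interneuron-like and 5.11% in PV/Th interneuron-like nuclei. Oligodendrocyte-like nuclei, a class with little OPRM1, gave 1.09% (0.927 to 1.28%), and OPC-like and astrocyte-like nuclei were near that share at 0.904% and 1.19%. The part of free RNA in these low shares was not tested. Without thinning, the shares were 97.0% in D2 MSNs, 92.4% in eccentric MSNs, 80.1% in D1 MSNs, 61.9% in microglia-like and 1.99% in oligodendrocyte-like nuclei, so the order of microglia-like nuclei and MSNs by share turned on the depth.

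**Figure D2:**
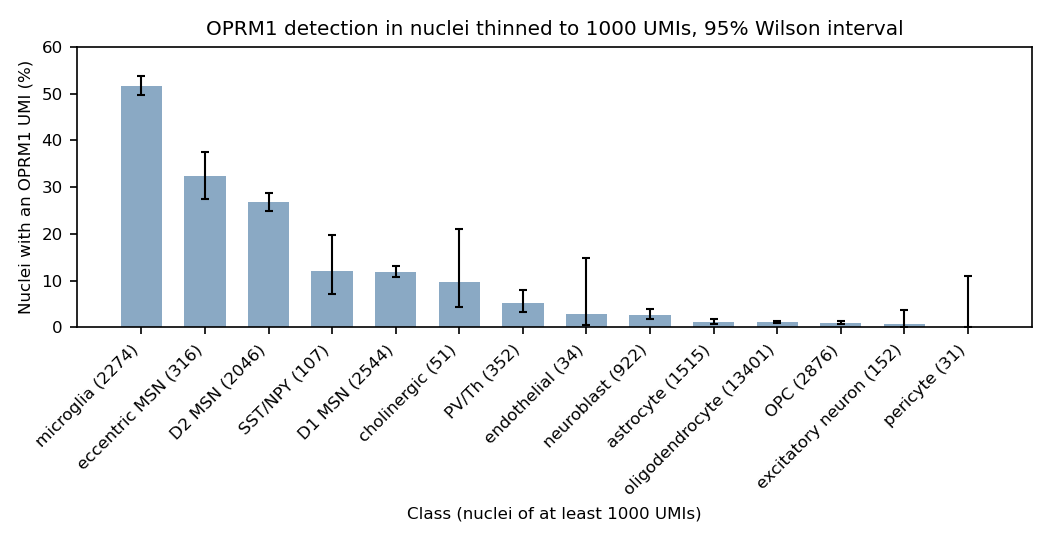
Share of nuclei with at least 1 OPRM1 UMI after thinning to 1000 UMIs, by class, with 95% Wilson intervals. The microglia-like class is at 51.7%, D2 MSNs are at 26.9%, and oligodendrocyte-like nuclei are at 1.09%.

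The OPRM1 signal of microglia-like nuclei was set beside IPCEF1 (ENSOARG00020024992), which encodes an interactor of cytohesin exchange factors and lies next to OPRM1 in the RefSeq sheep annotation. IPCEF1 was chosen after its values were seen. In microglia-like nuclei of libraries 1 to 7, IPCEF1 stood at 780, 807, 826, 810, 988, 976 and 770 CPM, a narrow range beside that of OPRM1 in the same nuclei. The UMIs of OPRM1 per UMI of IPCEF1 came to 1.08 in microglia-like nuclei (0.620 to 1.95 over libraries), against 5.49 in D2 MSNs (4.32 to 7.08), 5.53 in eccentric MSNs (3.11 to 8.09) and 39.4 in D1 MSNs (14.1 to 182). Within the thinned microglia-like nuclei, IPCEF1 was at 1007 ± 99.6 CPM in those with an OPRM1 UMI and at 678 ± 131 CPM in those without, higher in 7 of 7 libraries (two-sided exact permutation test by sign flips, p = 0.0156, the smallest it can give, adjusted p = 0.250 over the 16 genes compared). The MSN marker gene PDE10A was at 157 CPM in the OPRM1-positive and 160 CPM in the OPRM1-negative microglia-like nuclei, and PPP1R1B was at 3.21 and 5.10 CPM. The microglial gene CSF1R was at 537 and 567 CPM, while C1QB (97.2 and 60 CPM), P2RY12 (151 and 111 CPM), CX3CR1 (88.5 and 65.8 CPM) and C1QC (119 and 101 CPM) had higher means in the OPRM1-positive nuclei, and none passed after adjustment. Gene counts do not say which part of the locus a UMI came from, and whether microglial UMIs lay within OPRM1 transcripts was not tested.

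**Figure D3:**
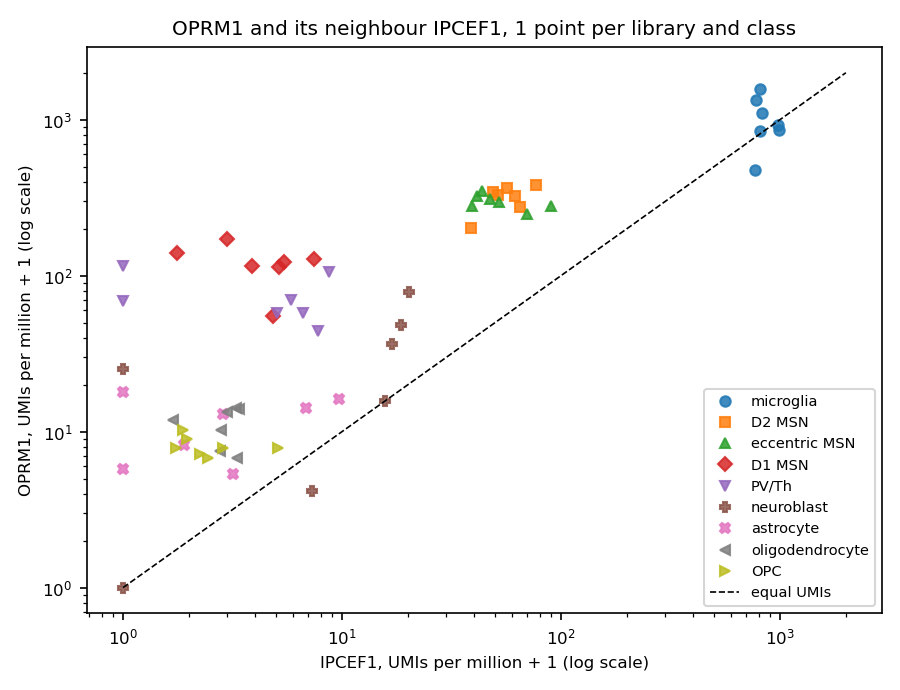
OPRM1 level against IPCEF1 level, both as CPM + 1 on log axes, with 1 point per library and class for the 9 larger classes, and a line of equal UMIs. Microglia-like points scatter along the OPRM1 axis at a nearly constant IPCEF1 level, and the MSN points lie at lower IPCEF1 levels with 4.32 to 7.08 OPRM1 UMIs per IPCEF1 UMI in D2 and 14.1 to 182 in D1 MSNs.

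OPRD1 was a gene of D2 MSNs in these nuclei. Its level there was 73.7, 75.9, 59.1, 45.7, 72.1, 56.1 and 41.5 CPM in libraries 1 to 7 (mean 60.6 ± 13.8 CPM). In D1 MSNs it was 6.14, 9.92, 2.24, 3.38, 6.93, 5.61 and 3.33 CPM, so the ranges were far apart. Eccentric MSNs lay between them at 24.7 ± 16.0 CPM, with libraries from 8.87 to 49.4 CPM. PV/Th interneuron-like nuclei held 9.51 ± 7.46 CPM, oligodendrocyte-like nuclei 4.69 ± 1.35 CPM, and microglia-like nuclei 1.14 CPM.

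OPRK1 was shared by the MSN classes at close to the same level. It stood at 31.8 ± 8.12 CPM in D1, 31.0 ± 5.70 CPM in D2 and 30.1 ± 7.86 CPM in eccentric MSNs. By library it was 37.3, 25.1, 37.3, 20.5, 28.9, 44.1 and 29.7 CPM in D1 MSNs, and 32.8, 27.8, 33.4, 22, 30.2, 40.7 and 30.3 CPM in D2 MSNs. Library 6 was the highest and library 4 the lowest in both. Outside MSNs it was found in neuroblast-like nuclei at 14.8 ± 7.98 CPM and, summed over libraries, in SST/NPY interneuron-like nuclei at 21.2 CPM, against 10.5 CPM (14 UMIs) in cholinergic interneuron-like nuclei, a mean of 2.39 CPM in PV/Th interneuron-like nuclei and means of at most 1.35 CPM in the glial classes tested.

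OPRL1 was barely detected. Among the 9 larger classes its highest mean was 2.24 ± 2.32 CPM in PV/Th interneuron-like nuclei, followed by 1.42 CPM in eccentric, 1.07 CPM in D1 and 0.997 CPM in D2 MSNs, and no UMI was found in neuroblast-like nuclei. Cholinergic interneuron-like nuclei held 7 UMIs, 5.27 CPM, and SST/NPY interneuron-like nuclei 5 UMIs, 2.58 CPM. No order of classes could be read for OPRL1 at this depth.

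For the 4 receptors, 32 pairs of neighbouring classes in the order of levels were compared within libraries by an exact sign-flip permutation test. The exact test over 7 libraries cannot go below p = 0.0156, and after Benjamini-Hochberg adjustment over the 32 pairs 0 passed 0.05. At that smallest p, each with an adjusted p of 0.100, OPRM1 was higher in microglia-like nuclei than in D2 MSNs by 1.62 on the log2 scale, in eccentric than in D1 MSNs by 1.36, and in PV/Th interneuron-like than in neuroblast-like nuclei by 2.17. OPRD1 was higher in D2 than in eccentric MSNs by 1.47, and OPRK1 was higher in neuroblast-like than in PV/Th interneuron-like nuclei by 2.30, each in 7 of 7 libraries. OPRM1 in D2 against eccentric MSNs (exact permutation test, adjusted p = 0.925) and OPRK1 in D1 against D2 MSNs (adjusted p = 0.940) did not differ beyond their spread.

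D1 and D2 MSNs of the same libraries were then compared across all genes with edgeR's quasi-likelihood test, with the library as a block. OPRM1 was lower in D1 than in D2 MSNs by 1.40 ± 0.07 (SE) on the log2 scale (log2 fold change -1.40, adjusted p = 9.79e-06), and OPRD1 by 3.49 ± 0.13 (log2 fold change -3.49, adjusted p = 5.41e-09), both in 7 of 7 libraries. OPRK1 did not pass the test (log2 fold change 0.01 ± 0.06, adjusted p = 0.948), and OPRL1 was too low to be tested. Of 11685 genes, 5.29% were called higher and 5.54% lower in D1 MSNs, beside 0 and 2 of the 3 receptors tested. The classes came from clusters of these same nuclei, so the counts over all genes are a description. Only the receptors, the peptide precursors and the striosome and matrix genes were kept out of clustering. P-values of other genes between D1 and D2 MSNs, IPCEF1 included, are therefore descriptions as well. IPCEF1 was also lower in D1 MSNs (3.53 against 56.5 CPM after normalization, log2 fold change -4.12 ± 0.28, adjusted p = 0.000123).

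Among the ligand precursors, PENK RNA was highest in D2 MSNs, and PDYN RNA was low in all of the 9 larger classes. PENK stood at 48.7 CPM in D2 and 2.15 CPM in D1 MSNs, though it was one of the markers that named the D2 class, so this is a description. Its mean was also above the D1 level in microglia-like (13.9 CPM), oligodendrocyte-like (8.92 CPM) and OPC-like nuclei (6.08 CPM). PDYN was at 5.57, 3.16, 3.49, 0.677, 2.26, 1.91 and 1.56 CPM in D1 MSNs of libraries 1 to 7 and at most 0.496 CPM in a D2 library. Its mean of 2.66 ± 1.59 CPM in D1 MSNs was near that of neuroblast-like nuclei (2.30 ± 2.41 CPM, 5 UMIs). Astrocyte-like and microglia-like nuclei had means of 1.66 and 1.55 CPM. Of 5 tested genes for peptide processing and breakdown, including the convertase gene PCSK2 and the carboxypeptidase gene CPE, none passed the test between D1 and D2 MSNs.

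Among the partners of the receptors inside the cell, GNAI1, a Gi alpha subunit, was higher in D1 MSNs (log2 fold change 0.60 ± 0.08, adjusted p = 1.14e-06), and GNAO1, the abundant Go alpha subunit of neurons, was slightly lower (508 against 552 CPM, log2 fold change -0.12, adjusted p = 0.000366). The remaining 2 of 4 tested alpha subunits did not pass. Of 12 tested receptor regulators, GRK3 (23.7 against 10.2 CPM, log2 fold change 1.25 ± 0.13, adjusted p = 2.23e-05) and GRK5 (log2 fold change 0.22 ± 0.05, adjusted p = 0.00111), kinases that phosphorylate activated receptors, were higher in D1 MSNs. GRK3 was among the genes leading the D1 cluster. The alpha subunit, regulator and effector genes were not kept out of clustering, so their p-values are descriptions. RGS4, RGS7, RGS9 and both arrestin genes did not pass. Of 8 effectors, CACNA1A, a calcium channel subunit, was lower in D1 MSNs (log2 fold change -0.09, adjusted p = 0.0282, above 0.05 in 7 alternatives), and the adenylyl cyclase gene ADCY5 did not pass. Of the striosome genes, LYPD1 was higher in D1 MSNs (log2 fold change 0.92) and BACH2 lower (-0.92), and of the matrix genes SV2B was higher (0.51) and GDA, EPHA4 and SGK1 were lower (-0.41, -0.12 and -0.11).

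Over the mean levels of the 9 classes, the genes whose pattern was most like OPRM1 among 9634 compared were PDIA5 (Pearson r = 0.959), RANBP9 (0.956) and PDK3 (0.956). For OPRD1 they were TMEM198 (0.851), OVCH1 (0.848) and the thyrotropin-releasing hormone receptor gene TRHR (0.834). For OPRK1 they were the leptin receptor gene LEPR (0.989), the growth cone gene GAP43 (0.979) and MYB (0.965). The class means share libraries, so these are descriptions over 9 points.

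The next comparison asks whether neurons with and without it differ in other genes. At 5000 UMIs per nucleus, 1056 of 2525 D1 MSNs (41.8%), 1536 of 2025 D2 MSNs (75.9%) and 221 of 308 eccentric MSNs (71.8%) had an OPRM1 UMI. In D1 MSNs, 1469 nuclei had 0, 651 had 1, 280 had 2 and 125 had 3 or more, with a highest value of 7. In D2 MSNs the numbers were 489, 532, 428 and 576, with a highest value of 9. A nucleus with no UMI at this depth can still express the gene, so positive and negative stand for detected and not detected.

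Detection of the other receptors was then compared between OPRM1-positive and OPRM1-negative nuclei. In D2 MSNs, OPRD1 was detected in 22.1% of OPRM1-positive (339 of 1536) and 24.9% of OPRM1-negative nuclei (122 of 489), and OPRK1 in 13.9% and 11.7%. In D1 MSNs, OPRK1 was detected in 14.1% (149 of 1056) and 13.3% (195 of 1469), and OPRD1 in 1.89% and 2.31%. In eccentric MSNs, OPRK1 was detected in 16.3% and 13.8%, and OPRD1 in 5.43% and 8.05%. In the test across genes on the summed UMIs of each library, OPRK1 differed by 0.09 ± 0.15 (log2, adjusted p = 0.954) between OPRM1-positive and OPRM1-negative D1 MSNs and by 0.08 ± 0.20 (adjusted p = 0.950) in D2 MSNs, and OPRD1 by -0.14 ± 0.15 (adjusted p = 0.827) in D2 MSNs.

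In OPRM1-positive D1 MSNs, RELN and BMPR1B were among the genes at a higher level, and GRM8, SGCZ, SASH1, MSRA, CDH4 and OPCML among those at a lower level. These 8 kept their calls in every alternative but the fit without the library as a block. Of 6912 genes tested with the library as a block, 22 (0.318%) were higher and 27 (0.391%) lower, and 12 and 18 of these had the same direction in every library. RELN, which encodes the secreted protein reelin, was at 1040 ± 217 CPM in positive and 887 ± 243 CPM in negative nuclei (log2 fold change 0.22 ± 0.04). The BMP receptor gene BMPR1B (0.49), the glypican gene GPC6 (0.20), the nuclear receptor coactivator gene NCOA1 (0.26), the potassium channel interactor gene KCNIP4 (0.13) and the collagen genes COL25A1 (0.67) and COL11A1 (0.79) were higher as well. COL11A1 (30.1 against 17.7 CPM) is one of the eccentric MSN markers, and all eccentric markers summed to 174 CPM in positive (114 to 206) and 141 CPM in negative nuclei (98.9 to 176), higher in 6 of 7 libraries with 3 of 5 markers higher and none at 0. Their part in the other differences was not tested. COL25A1 fell to 0.12 at 10000 UMIs (adjusted p = 0.900) and 0.07 without thinning (adjusted p = 0.848). Its call was also lost without library 2 or 3, as was that of KCNIP4. The calls were lost without library 7 for COL11A1 (0.62, adjusted p = 0.189) and without library 5 for GPC6 (0.13, adjusted p = 0.0797) and NCOA1. ThymB4X was higher by 0.34 here but was lower by 0.26 (log2 fold change -0.26, adjusted p = 0.00510) without thinning.

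GRM8, a metabotropic glutamate receptor that also couples to Gi/o, was at 759 ± 205 CPM in OPRM1-positive and 942 ± 236 CPM in OPRM1-negative D1 MSNs (log2 fold change -0.32, adjusted p = 6.46e-10). The heparan sulfate enzyme gene HS6ST3 (-0.22), SGCZ (-0.20), SASH1 (-0.38), the methionine sulfoxide reductase gene MSRA (-0.36), the cadherin gene CDH4 (-0.31), the receptor phosphatase gene PTPRK (-0.34) and OPCML, a neural adhesion molecule named for opioid binding (-0.17), were lower too. HS6ST3 fell short at 10000 UMIs (-0.14, adjusted p = 0.293) and without thinning (-0.08, adjusted p = 0.326), as did PTPRK without thinning (-0.29, adjusted p = 0.243). The 8 lower and 8 higher genes were named by the smallest adjusted p among genes with 1 direction in every library.

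The striosome list was examined because mu receptor patches define striosomes, and 0 of its 5 tested genes passed in D1 MSNs. KCNIP1 was higher in positive nuclei in 7 of 7 libraries (log2 fold change 0.36 ± 0.10, adjusted p = 0.0759) and passed when nuclei were thinned to 10000 UMIs (0.50, adjusted p = 0.000130). BACH2 differed by 0.38 (adjusted p = 0.320) and LYPD1 by 0.33 (adjusted p = 0.313), each higher in 6 of 7 libraries, KHDRBS3 by 0.16 and SEMA5B by -0.07. Without thinning, KCNIP1 (0.69, adjusted p = 0.00342), BACH2 (0.48, adjusted p = 0.00594) and KHDRBS3 (0.67, adjusted p = 0.0139) passed. LYPD1 passed with positives at 2 or more UMIs (0.60, adjusted p = 0.0356), BACH2 without library 5 (0.57, adjusted p = 0.0433) and KCNIP1 without library 6 (0.39, adjusted p = 0.0492). In the alternatives not named here, none of the 5 tested genes passed in D1 MSNs. In D1 MSNs the median over the striosome list was 0.33 with 4 of 5 genes higher. The median over the 5 tested matrix genes was -0.09 with 0 higher, and that over all genes was 0.00. This contrast was not seen in D2 MSNs, where the striosome median was 0.08 with 2 of 3 tested genes higher. The matrix median in D2 MSNs was 0.10 with 4 of 5 tested genes higher. None of the 3 striosome genes tested in D2 MSNs passed in the main run. KCNIP1 was higher in OPRM1-positive D2 MSNs, from 0.39 to 0.70 on leaving out libraries. It passed there only with no filter on low counts (0.64, adjusted p = 0.00350) and without library 1 (0.70, adjusted p = 0.00278), and in no other alternative. Of the 13 receptor regulators 8 were tested in D1 MSNs and none passed, RGS4 among them (0.43, adjusted p = 0.259, higher in 7 of 7 libraries).

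In OPRM1-positive D2 MSNs, 13 of 5680 genes (0.229%) were higher and 25 (0.44%) lower, 5 and 13 of them in every library. The higher genes were HYLS1, a centriolar gene (log2 fold change 1.13), IPCEF1 (0.61 ± 0.16, 67.2 against 44.1 CPM, adjusted p = 0.0415), PALMD (0.31), the exchanger gene SLC24A5 (0.47) and the deubiquitinase gene USP8 (0.34). All 5 lost their calls when nuclei were thinned to 10000 UMIs, where HYLS1 fell to 0.42 and USP8 to 0.17. On leaving out single libraries, IPCEF1 and PALMD kept theirs only without library 6, and USP8 only without library 1. SLC24A5 kept its call only without library 5 or 6, and HYLS1 lost its call without library 3, 5 or 7. ADCY5, the main adenylyl cyclase of MSNs and an effector that Gi/o proteins inhibit, was lower in positive nuclei (818 ± 132 against 961 ± 188 CPM, log2 fold change -0.23 ± 0.05, adjusted p = 0.0198). That call was lost without library 2, 3 or 7 (adjusted p = 0.0822, 0.0934 and 0.0631). The call was also lost with no filter on low counts (-0.16, adjusted p = 0.361) and without thinning (-0.17, adjusted p = 0.835). ADCY5 was the 1 gene of 6 tested effectors that passed. The median over the 6 was -0.25 with all of them lower, against -0.00 over all genes. PLXNA4 (-0.31), CTDSPL (-0.33), CDH4 (-0.32), KIAA1217 (-0.37), the phosphodiesterase gene PDE1C (-0.16), GALNT14 (-0.64) and the calmodulin regulator gene PCP4 (-0.34) were lower as well. The calls were lost without library 7 for PLXNA4, without library 3 for CTDSPL and CDH4, and without any of at least 3 libraries, library 3 among them, for the other 4. PLXNA4 also fell to -0.16 at 10000 UMIs and KIAA1217 to -0.09 without thinning. The summed MSN markers were at 3478 CPM (3115 to 4200) in positive and 3779 CPM (3073 to 4863) in negative D2 MSNs. They were higher in positive nuclei in 1 of 7 libraries, with 2 of 5 markers higher. The D1 markers summed to 259 and 286 CPM (0 of 5 higher, CHRM4 and ISL1 at 0), and the D2 markers to 456 and 438 CPM (5 of 5 higher). The summed microglia markers were at 6.52 CPM (5.06 to 8.74) in positive and 4.53 CPM (0 to 11.8) in negative D2 MSNs, with 4 of 7 markers higher and C1QB at 0. The part of these marker differences in the other differences was not tested.

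The D1 and D2 comparisons had 5 called genes in common, 10.2% of the 49 called in D1 MSNs and 13.2% of the 38 called in D2 MSNs. CDH4 and PDE1C were lower in OPRM1-positive nuclei of both classes, and GPC6 was higher in D1 (0.20) and lower in D2 MSNs (-0.21). In D2 MSNs, CDH4 lost its call at 10000 UMIs (-0.28, adjusted p = 0.0779), without thinning (-0.46, adjusted p = 0.280) and with no filter on low counts (-0.25, adjusted p = 0.0764). PDE1C lost its call there without thinning (0.02) and with no filter (-0.09, adjusted p = 0.866). The calls of both comparisons depended on the pairing of sums within a library. Without the library as a block, edgeR called 0 genes in either class, with 83 at an unadjusted p under 0.05 in D1 and 188 in D2 MSNs. DESeq2 with the block called 21 genes in D1 and 8 in D2 MSNs. In D2 MSNs, leaving out library 7, 3 or 5 left 9, 10 or 17 calls.

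**Figure D4:**
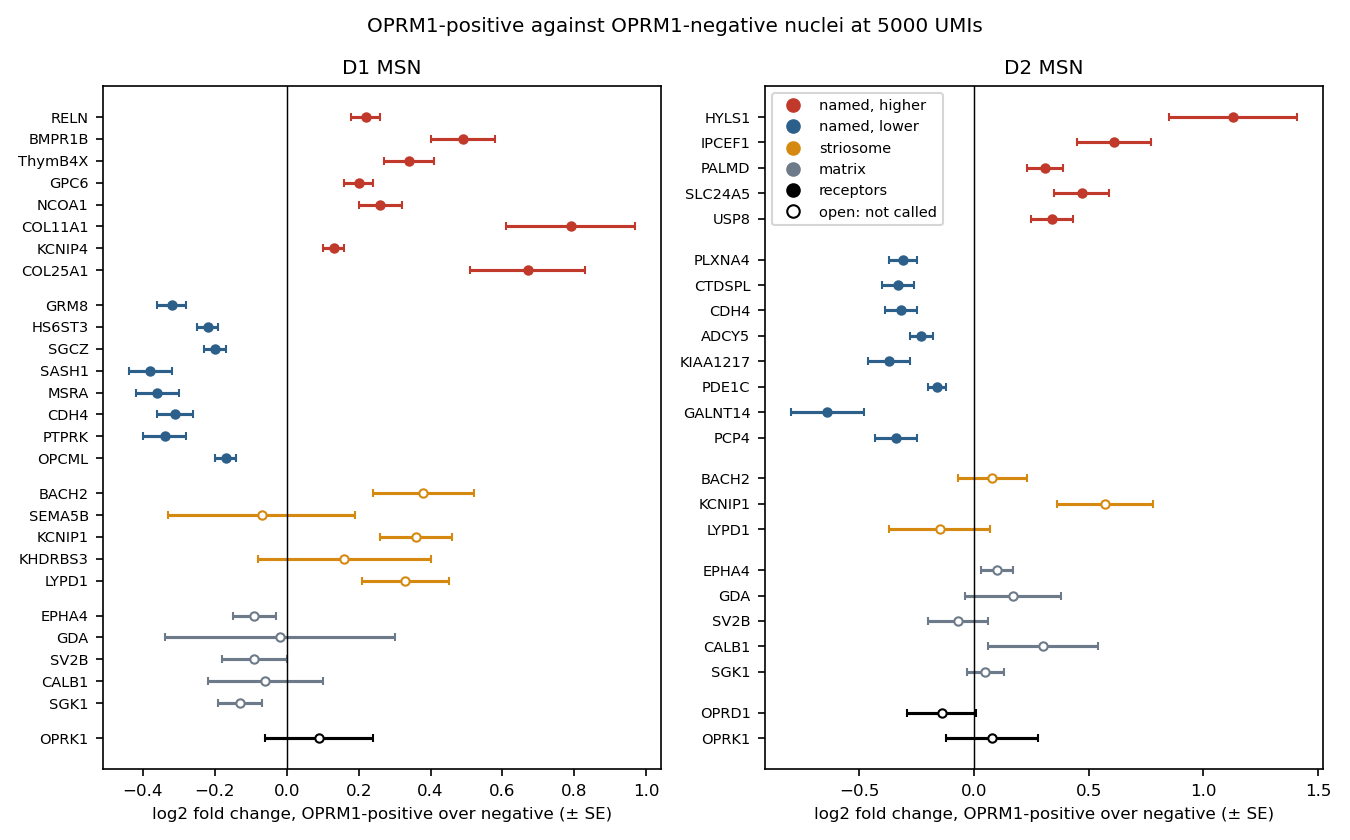
Log2 fold change of OPRM1-positive against OPRM1-negative nuclei at 5000 UMIs for named genes, in D1 and D2 MSNs, with bars of 1 SE from edgeR with the library as a block. In D1 MSNs RELN lies at 0.22 and GRM8 at -0.32, and in D2 MSNs IPCEF1 lies at 0.61 and ADCY5 at -0.23.

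OVT73 and control libraries were compared to ask whether the transgene changes receptor RNA, and no receptor passed the test in any class. OPRM1 in D1 MSNs was at 146 ± 29.8 CPM in OVT73 and 102 ± 34.0 CPM in control libraries after normalization (log2 fold change 0.52 ± 0.26, edgeR adjusted p = 0.962). In D2 MSNs it was at 365 ± 35.6 and 283 ± 65.2 CPM (0.36 ± 0.17, adjusted p = 0.931). The OVT73 and control libraries overlapped in both, and the difference shrank to 0.31 in D1 and 0.23 in D2 MSNs without library 4, the lowest control. At the other end, OVT73 library 7 was the highest in both classes (171 CPM in D1 and 382 CPM in D2 MSNs before normalization). In eccentric MSNs OPRM1 differed by 0.03 ± 0.14, in PV/Th interneuron-like nuclei by 0.06, in OPC-like nuclei by 0.42 ± 0.35 (adjusted p = 0.820), and in oligodendrocyte-like nuclei by 0.51 ± 0.30 (adjusted p = 0.878).

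In microglia-like nuclei OPRM1 pointed the other way, at 855 ± 334 CPM in OVT73 and 1217 ± 367 CPM in control libraries (log2 fold change -0.51 ± 0.35, adjusted p = 0.998). The log2 ratio of the MSN level to the microglial level within a library was -2.47 ± 0.88 in OVT73 and -3.52 ± 0.55 in control libraries for D1 MSNs, a difference of 1.04 (exact permutation of the 35 ways to choose the OVT73 libraries, two-sided, p = 0.114). For D2 MSNs it was -1.14 ± 0.75 and -1.99 ± 0.48, a difference of 0.85 (exact permutation test, p = 0.114). The design of 3 against 4 libraries allows no p below 0.0286.

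**Figure D5:**
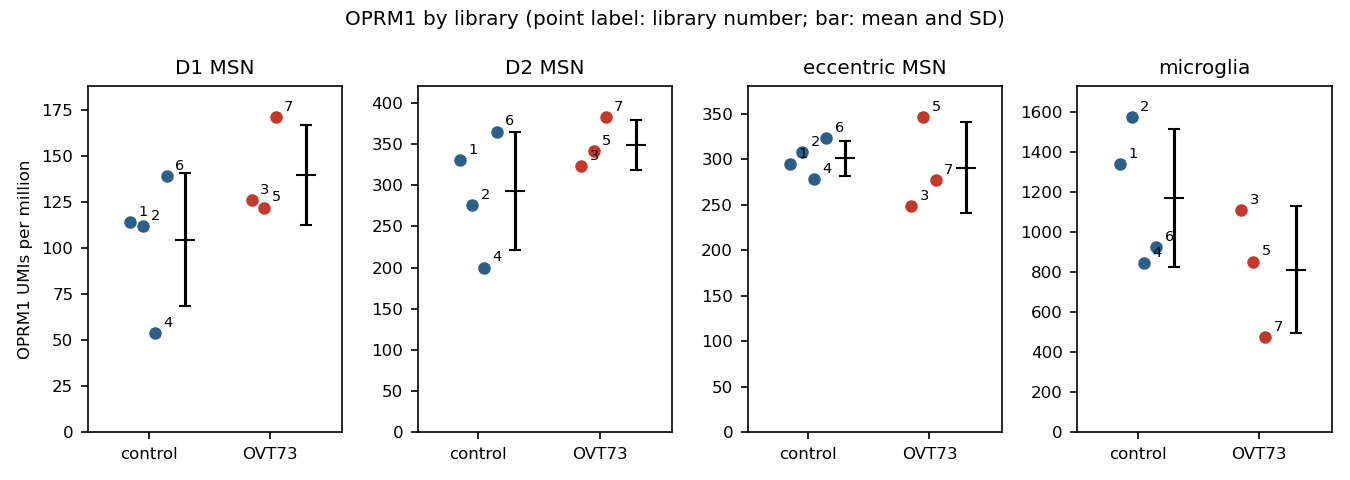
OPRM1 level in CPM by library in D1 MSNs, D2 MSNs, eccentric MSNs and microglia-like nuclei, OVT73 beside control, with a bar at each group mean. The groups overlap in all 4 panels, and control library 4 is the lowest point in D1 (53.9 CPM) and D2 MSNs (200 CPM).

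The other receptors showed no called difference either. OPRD1 differed between OVT73 and control by -0.48 in D1, -0.02 in D2 and -0.80 ± 0.47 in eccentric MSNs (adjusted p = 0.770) and by 0.20 in oligodendrocyte-like nuclei. OPRK1 differed by 0.10, 0.13 and 0.01 in D1, D2 and eccentric MSNs, and OPRL1 by -0.57 in D1 MSNs. In all, 15 of 36 class and receptor pairs passed the filter on low counts and 0 were called, against a background of 0% of 12250 genes in D1 MSNs, 0% of 11734 in D2 MSNs, 0% of 6656 in microglia-like nuclei, 0.0134% of 7437 (1 gene) in eccentric MSNs and 0.0111% of 9036 (1 gene) in OPC-like nuclei. The edgeR fits gave 480 genes at an unadjusted p under 0.05 in each of D1 and D2 MSNs and 283 in microglia-like nuclei, and DESeq2 called 2, 4 and 1 genes there. Of 295 tests of genes on the opioid lists in the 9 classes, 0 were called.

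On CPM without further normalization, all 36 pairs were also tested by exact permutation of the libraries, with a smallest adjusted p of 0.686. This test allows no p below 0.0286. A pair could pass the adjustment only if many of the 36 reached that smallest p together. The adjusted values therefore cannot decide whether single receptors differ between OVT73 and control. The groups did not overlap in 2 of the 36, beside 4.79% of all genes with a UMI in these classes. OPRK1 in neuroblast-like nuclei was at 7.96 ± 1.28 CPM in OVT73 (7.05 to 9.42) and reached 28.9 CPM in control libraries, all of which were above 9.42 CPM (exact permutation test, p = 0.0571), on 11 and 12 UMIs. OPRL1 in eccentric MSNs rested on 3 and 5 UMIs. On the normalized values, OPRM1 in OPC-like nuclei was the 1 of 15 tested pairs whose groups did not overlap. It was at 7.04 to 10.1 CPM in OVT73 and 5.74 to 6.97 CPM in control libraries (exact permutation test, p = 0.0286, adjusted p = 0.429). Before normalization these groups overlapped. Of the 295 list gene tests, which include the receptors, 7.12% had groups that did not overlap on the normalized values. The share over all genes (4.79%) was counted only before normalization and without the filter on low counts. Neither the 7.12% nor the 1 of 15 pairs can be set against it.

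The share of MSNs with an OPRM1 UMI at 5000 UMIs was 44.4 ± 6.61% in OVT73 and 36.8 ± 9.17% in control libraries for D1 MSNs, a difference of 7.57 percentage points (exact permutation test, p = 0.400). For D2 MSNs it was 77.9 ± 3.36% and 71.9 ± 12.1%, a difference of 5.97 points (exact permutation test, p = 0.543). For eccentric MSNs it was 74.1 ± 5.71% and 71.7 ± 10.0%, a difference of 2.45 points (exact permutation test, p = 0.714). Unthinned, the differences were 8.42, 3.95 and 5.90 points. Library 4 had the lowest share in D1 (23.3%) and D2 MSNs (55.6%), and no difference in share passed the exact permutation test. At 5000 UMIs the D1 and D2 differences were smaller than the SD of the control libraries but larger than that of the OVT73 libraries. In counts simulated at the D2 MSN depths over 11734 genes, edgeR recovered 53.5% of the genes given a log2 change of 1 and 88.0% of those given 2, with 5 and 10 false calls. At the microglia-like depths over 6656 genes it recovered 39.0% and 91.5%, with 10 and 20 false calls. Log2 changes below 1 were not simulated, so these values do not give the recovery at the size of the OPRM1 differences in MSNs.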

How the data were processed

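Nuclei of frozen striatum were profiled by droplet 3′ RNA sequencing. The deposited values are raw UMI counts per gene and barcode, which the authors made with Cell Ranger 7.0.0 and STAR 2.7.2a on the Rambouillet sheep genome with Ensembl annotation. The paper names no setting for introns. In its supplement, every library had a larger share of reads on the transcriptome than on exons. Exonic reads alone cannot account for that share, so intronic reads appear to be among those counted. Barcodes (35272) with 200 to 7500 genes and at most 5% of UMIs on 35 mitochondrial features were kept (33957), and the 4% with the highest scrublet scores in each library were removed, since its own cutoff marked 129. Scanpy 1.11.5 normalized the counts and chose 3000 variable genes without the receptors and related lists (20 genes). Their 30 principal components were corrected between libraries by a Harmony-style procedure. Each library belongs to 1 group, so this correction also acted across OVT73 and control, and its part in the classes was not tested. A graph of shared neighbours (20 per nucleus) was then split with igraph 0.11.9 at resolution 1.0 into 28 clusters. The summed UMIs were not corrected. The naming rule was revised after marker profiles were seen, one of which showed OPRD1 among the genes leading the D2 cluster, and before groups were compared. Of 92 marker symbols 84 were in the files, and 3144 nuclei stayed unnamed. UMIs were summed per library and class where every library had 10 nuclei, and tested with edgeR 4.0.16 (quasi-likelihood, robust, filterByExpr, TMM, R 4.3.3), with Benjamini-Hochberg adjustment over all genes of a fit and a threshold of 0.05. The standard error is the log2 fold change over the root of F. The sums of 1 library in paired comparisons come from the same sheep, which is where the block comes from. Single values were tested by exact permutation, on log2(CPM + 1) for the order of classes. DESeq2 1.42.0, other filters, scaling, thinning, clustering and leaving out libraries were alternatives. Named genes were the receptors, 8 fixed lists and, for OPRM1-positive against OPRM1-negative nuclei, up to 8 genes per direction with the smallest adjusted p and the same direction in every library. The likeness of patterns used genes at 10 CPM or more. The members and lists were chosen with earlier results of these data known. No batch is given in the labels. P-values between OVT73 and control measure the spread between libraries, in which pooled sheep were not separated. Those of the paired comparisons measure the spread of differences within libraries.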

Additional observations from a re-analysis of the deposited data

How the results depend on the processing

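Between D1 and D2 MSNs, the calls of OPRM1 and OPRD1 held in every alternative run. The number of calls fell to 127 with no replicate block and to 802 with DESeq2, and OPRK1 ranged from -0.00 to 0.04 (log2) on leaving out each library. For OPRM1-positive against OPRM1-negative D1 MSNs, the calls numbered 0 with no replicate block, 101 thinned to 10000 UMIs, 76 with positives at 2 or more UMIs, 308 without thinning and 21 with DESeq2. For D2 MSNs they numbered 0, 82 (2 or more UMIs), 12 (no thinning) and 8 (DESeq2), and 9 to 48 on leaving out libraries. Without thinning, ThymB4X (-0.26) and OPRK1 (-0.07, and -0.04 at 10000 UMIs) reversed in D1 MSNs, and HYLS1 (-0.18), PDE1C (0.02), SLC24A5 (-0.00), OPRD1 (0.04), LYPD1 (0.49) and CTDSPL (0.06) in D2 MSNs. Leaving out libraries gave -0.22 to 0.01 for SEMA5B and -0.00 to 0.16 for OPRK1 in D1, and -0.03 to 0.28 for OPRK1 in D2 MSNs. The cause of these shifts was not tested.

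For OVT73 against control, DESeq2 called 2 genes in D1 and 4 in D2 MSNs, 9 in OPC-like, 1 in PV/Th, 1 in microglia-like and 5 in oligodendrocyte-like nuclei. Without a filter 1 was called in D2, 31 in OPC-like, 14 in PV/Th, 10 in astrocyte-like, 47 in eccentric, 30 in microglia-like and 1 in oligodendrocyte-like nuclei. Without TMM, and with equal numbers of nuclei, 2 were called in OPC-like and 0 in eccentric nuclei. Leaving out libraries gave 0 to 1 calls in D2, PV/Th, microglia-like and oligodendrocyte-like, 0 to 2 in OPC-like and 0 in eccentric nuclei. It gave log2 fold changes of -0.05 to 0.30 for OPRK1 in D1, -0.26 to 0.18 for OPRD1 in D2, -0.35 to 0.34 for OPRM1 in PV/Th, -0.13 to 0.14 for OPRM1 and -0.15 to 0.21 for OPRK1 in eccentric nuclei. OPRD1 in D2 MSNs reversed without a filter (0.02) and with equal nuclei (0.01), and without TMM OPRM1 in PV/Th (-0.01) and eccentric nuclei (-0.06) and OPRK1 in eccentric nuclei (-0.06, and -0.13 with equal nuclei) did. The OVT73 difference in the share of eccentric MSNs with OPRM1 ran from -0.978 to 5.65 points on leaving out libraries. No receptor was called between OVT73 and control in any alternative.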

Other observations

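OPRM1 was also found outside the named classes. One unnamed cluster, which held both microglia and T cell markers, was at 523 CPM of OPRM1. Another, at 463 CPM, held microglia and oligodendrocyte markers, and 59.2% of its nuclei were counted as doublets before removal. Summed over all unnamed nuclei there were 3426 OPRM1 UMIs and 1628 IPCEF1 UMIs, a ratio of 2.10 (1.74 to 3.27 over libraries). That ratio lay between those of microglia-like nuclei and D2 MSNs. The unnamed nuclei included clusters with microglia markers and clusters with MSN markers, and the part of such a mixture in the ratio was not tested. In 53 cholinergic interneuron-like nuclei there were 153 OPRM1 and 82 IPCEF1 UMIs, a ratio of 1.87. PNOC, the precursor of nociceptin, was at 19.1 CPM (37 UMIs) in SST/NPY interneuron-like nuclei summed over libraries and at most 1.96 CPM in any other class.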
